A study of Macaca mulatta with 2 samples.

Results

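Expression of 7 neuronal genes, SNAP25, SYT1, UCHL1, VSNL1, NSG1, NRGN and DNER, was described across the layers of macaque retina outside the vector-treated areas. They were taken by gene symbol, and all 7 were found among the 26533 features of the reference. The data are 2 spatial transcriptomic (Visium) sections of full-thickness retina, choroid and sclera, 1 from each of 2 male rhesus macaques. NHP1, aged 5 years, had received AAV2-CAG-hRPE65 under the retina of both eyes. NHP2, aged 6 years, had received AAV8-GRK1-hRPGRco in a bleb of each eye and AAV8-GRK1-mScarlet in another. Both sections came from the right eye, from a punch taken outside the injected blebs. Both animals thus carried vector elsewhere in the sampled eye. Per the paper, every eye had also had a vitrectomy, a subtenon triamcinolone injection and repeated vitreous biopsies. No uninjected animal is among the samples analysed here. With 1 section per animal there is no replicate, so values are given for each section with intervals that cover counting error only, and no test between groups was made.

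Neurons release transmitter when calcium entry makes synaptic vesicles fuse with the cell membrane. SNAP25 is one of the SNARE proteins that pull the membranes together, and SYT1 (synaptotagmin 1) is the calcium sensor of fast release. VSNL1 (visinin-like protein 1) is a neuronal calcium sensor and NRGN (neurogranin) binds calmodulin. UCHL1 is a ubiquitin hydrolase abundant in neurons, NSG1 is an endosomal protein of neurons that acts in receptor trafficking, and DNER is a transmembrane protein with EGF-like repeats that can act as a Notch ligand. In the retina, photoreceptors form the outer layers, bipolar, horizontal and amacrine cells the inner nuclear layer, and ganglion cells the innermost layer of cell bodies, from which axons run to the optic nerve.

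The genes lie on 6 chromosomes of the macaque assembly Mmul_10, the build of the deposited counts, with positions from the RefSeq annotation. SNAP25 spans chr10:56248363-56335596 on the minus strand, SYT1 chr11:78464658-79062480 on the plus strand and UCHL1 chr5:40423645-40435054 on the plus strand. VSNL1 spans chr13:91310969-91426414 on the minus strand and NSG1 chr5:8503613-8538773 on the minus strand. NRGN spans chr14:117518097-117525435 on the plus strand and DNER chr12:116785555-117147061 on the minus strand. The 250 bases upstream of the annotated gene start are shown for 3 of them, chosen for contrast. These are DNER with the most matches to the GC box, VSNL1 with the lowest GC content, and SYT1. From summed UMIs SYT1 had an inner over outer retina ratio near 1, unlike the others. Capitals mark the GC box, GGGCGG, or its reverse complement CCGCCC, where matches may overlap. The windows are chr11:78464408-78464657 (plus) for SYT1, chr13:91426415-91426664 (minus) for VSNL1 and chr12:117147062-117147311 (minus) for DNER.
SYT1: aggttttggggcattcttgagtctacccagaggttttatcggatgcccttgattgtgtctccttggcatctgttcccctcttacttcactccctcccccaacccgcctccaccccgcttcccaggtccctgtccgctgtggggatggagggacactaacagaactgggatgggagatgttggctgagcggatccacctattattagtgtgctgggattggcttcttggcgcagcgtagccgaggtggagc
VSNL1: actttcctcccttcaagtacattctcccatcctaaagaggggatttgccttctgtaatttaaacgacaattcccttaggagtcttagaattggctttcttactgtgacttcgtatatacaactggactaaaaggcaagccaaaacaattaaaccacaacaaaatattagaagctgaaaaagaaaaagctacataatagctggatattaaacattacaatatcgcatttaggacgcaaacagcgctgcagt
DNER: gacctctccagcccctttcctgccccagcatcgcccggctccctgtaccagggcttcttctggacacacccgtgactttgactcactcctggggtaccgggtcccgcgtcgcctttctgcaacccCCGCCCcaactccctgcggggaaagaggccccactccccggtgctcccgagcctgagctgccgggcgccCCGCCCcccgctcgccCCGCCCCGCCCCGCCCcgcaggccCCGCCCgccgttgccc
Counting both strands, DNER held 6 GC boxes, NSG1 1 and NRGN 1, whereas SYT1, UCHL1 and VSNL1 held none. Among 20787 gene windows of the same length 43.7% held a GC box, against 3 of these 6. GC content ran from 36.8% in VSNL1 to 74.4% in DNER, around a median of 57.2% over all windows. A TATA box, TATAAA, was found in none of the 6, and in 9.85% of all windows. The E box CAGCTG and the cAMP response element TGACGTCA were also in none of the 6, and in 12.0% and 1.47% of all windows.

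The NHP1 section held 534 tissue spots with 1484784 UMIs (unique molecular identifiers, each standing for 1 captured transcript), and the NHP2 section 470 tissue spots with 805726 UMIs. The median depth was 1473.5 UMIs per tissue spot in NHP1 and 370.50 in NHP2. A spot is wider than a cell and can take RNA from several layers. Spots with at least 200 UMIs were classed by marker lists that hold none of the 7 genes. The photoreceptor class, called outer retina here, held 155 spots in NHP1 and 36 in NHP2. The inner nuclear class held 120 and 28 spots and the ganglion class 83 and 46, and these 2 classes together are called inner retina. Layers were not fully separated, since in 70 of 358 retina spots of NHP1 and 29 of 110 of NHP2 the leading list was under 1.5 times the next. The class rested on under 3 UMIs of its list in 45 of 203 inner spots of NHP1 and 35 of 74 of NHP2. POU4F1 and POU4F2, defining transcription factors of ganglion cells, had no UMI in the inner spots of either section, and NEFL, a neurofilament subunit, led the ganglion list with 487 and 293 UMIs. The NHP2 values rest on few deep spots, 1 of which carried 22.7% of all UMIs of its ganglion class.

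**Figure D1:**
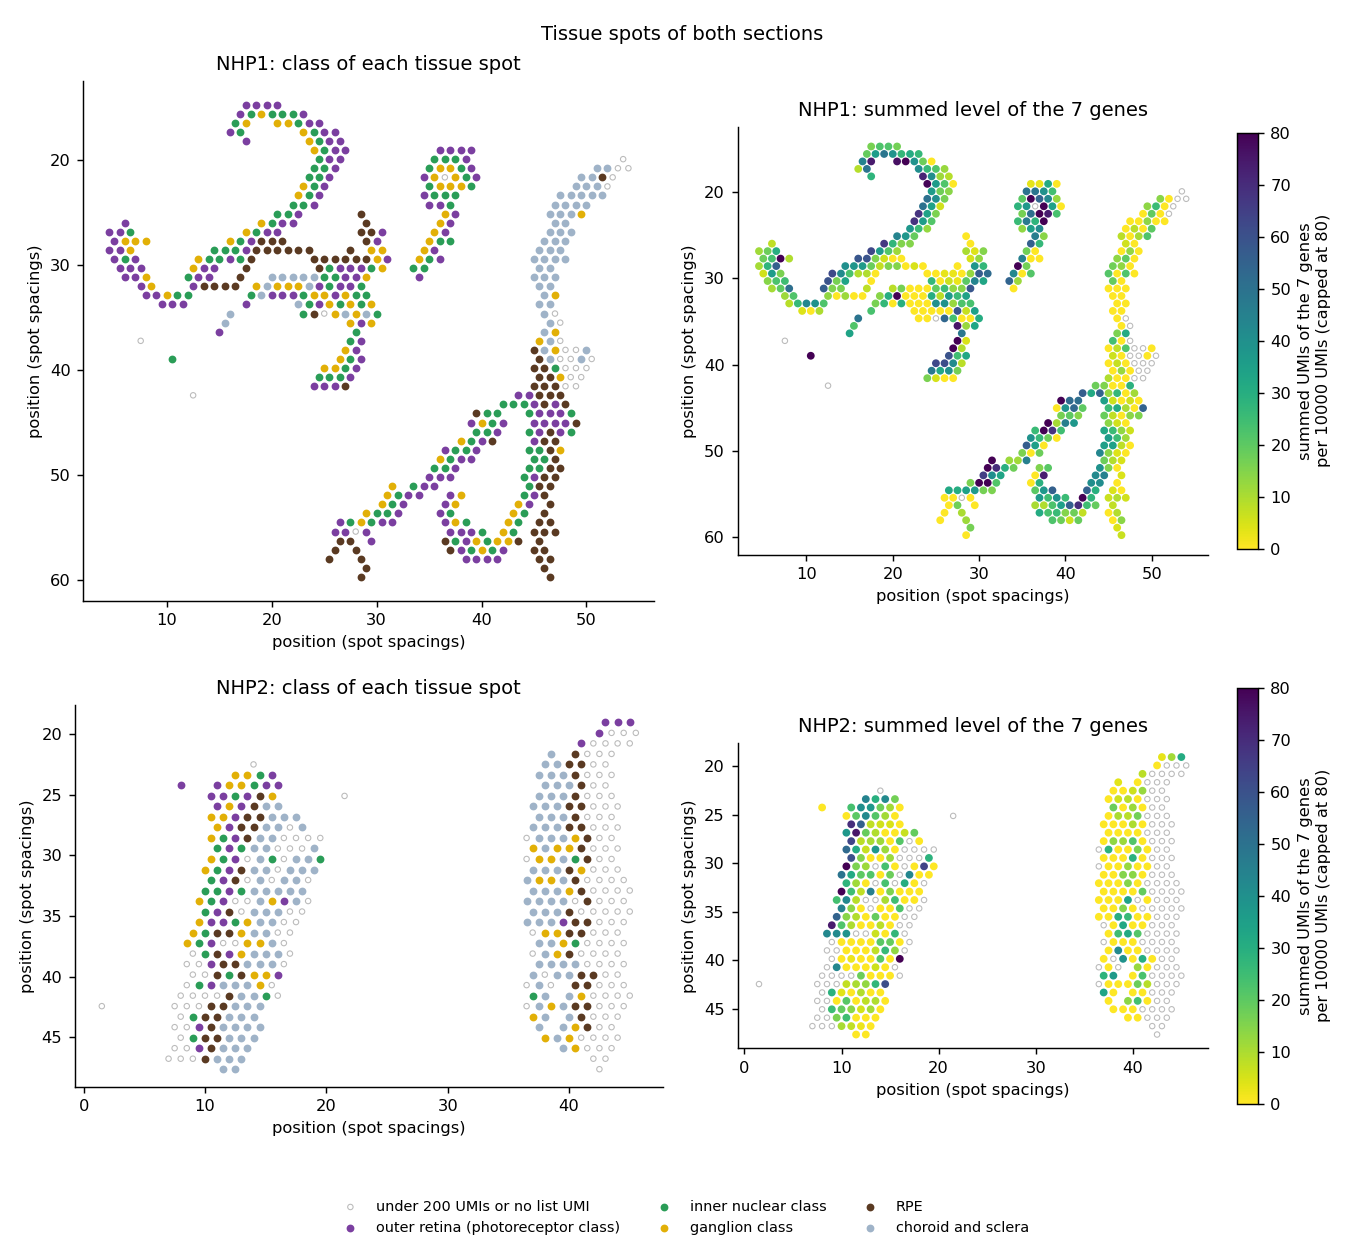
Tissue spots of both sections, with positions in spot spacings on both axes. Left, the class of each spot; right, the summed UMIs of the 7 genes per 10000 UMIs of the spot, capped at 80. High values follow the inner nuclear and ganglion classes in NHP1 and in the left piece of NHP2, and the right piece of NHP2 shows few.

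SNAP25 was present in every layer of the retina and about 2-fold higher in the inner layers. In NHP1 it stood at 10.2 UMIs per 10000 in outer retina (538 UMIs), 20.01 in the inner nuclear class (964 UMIs) and 23.5 in the ganglion class (683 UMIs). In NHP2 the levels were 10.1, 19.3 and 22.4, from 178, 378 and 500 UMIs. The summed levels of both sections were close. The inner over outer ratio was 2.08 in NHP1 (95% interval 1.89 to 2.30) and 2.08 in NHP2 (1.77 to 2.46). With equal weight for each spot it was 1.93 in NHP1 and 1.23 in NHP2, and with spots thinned to 500 UMIs it was 0.882 in NHP2. In the largest tissue piece of NHP2 the ratio was 0.795 (0.183 to 3.46), from 5 inner and 5 outer UMIs, too few to show a direction. A lower level in a class can mean fewer neurons in its spots or less RNA per neuron, which cannot be told apart in such spots. The ganglion class was only slightly above the inner nuclear class, 1.17-fold in NHP1 (1.06 to 1.29) and 1.16-fold in NHP2 (1.02 to 1.33). Outside the neural retina SNAP25 was lower still, at 3.13 and 4.57 per 10000 in RPE-class spots and at 2.76 and 2.94 in choroid and sclera spots. At least 1 SNAP25 UMI was found in 85.7% of inner spots of NHP1 (median depth 1975.0 UMIs) and in 78.7% of outer spots (2611.0 UMIs). Choroid and sclera spots, which should hold few neurons, had one in 16.9% at a median depth of 531.00 UMIs. In NHP2 the order of the shares was the other way, with 51.4% of inner spots (856.50 UMIs) and 69.4% of outer spots (3333.5 UMIs), against 22.8% of choroid and sclera spots (676.50 UMIs).

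SYT1, the partner of SNAP25 in fast release, showed no such step and was sparse. In NHP1 its level was 0.648 per 10000 in outer retina (34 UMIs), 0.789 in the inner nuclear class (38 UMIs) and 0.446 in the ganglion class (13 UMIs). The NHP2 section held 10 SYT1 UMIs in all tissue spots, of which 2 were in outer and 5 in inner retina, with 4 of those 5 in 1 deep spot. The inner over outer ratio was 1.02 in NHP1 (0.647 to 1.62), which by counting error alone leaves room for a difference of up to 1.62-fold. With spots thinned to 500 UMIs the NHP1 ratio was 0.414, and with equal weight for each spot 0.737. In NHP2 the ratio from summed UMIs was 1.06 (0.173 to 11.1), too wide to compare. Choroid and sclera spots of NHP1 held 0 SYT1 UMIs among 39900, where a count of 0 allows up to 3.

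VSNL1, the calcium sensor, was higher at each class from outer retina to the ganglion class. Its level in NHP1 was 0.781 per 10000 in outer retina (41 UMIs), 2.08 in the inner nuclear class (100 UMIs) and 6.53 in the ganglion class (190 UMIs). NHP2 gave 0.396, 2.34 and 6.33 in the same order, from 7, 46 and 141 UMIs. By counting error alone, which leaves out the spread between spots, the intervals of the 3 classes did not overlap in either section. In NHP2 1 deep spot held 52 of the 141 ganglion UMIs. Inner over outer ratios were 4.80 in NHP1 (3.46 to 6.84) and 11.3 in NHP2 (5.37 to 28.4). The NHP1 ratio was 2.35 in the largest tissue piece and 24.9 with thinned spots. With equal weight for each spot the NHP2 ratio was 5.85. Ganglion over inner nuclear ratios were 3.14 (2.45 to 4.05) in NHP1 and 2.70 (1.92 to 3.85) in NHP2. A VSNL1 UMI was seen in 60.2% of ganglion (median depth 1613.0 UMIs), 42.5% of inner nuclear (2624.0 UMIs) and 6.15% of choroid and sclera spots (531.00 UMIs) of NHP1. In NHP2 the share was lower in ganglion spots, at 12 of 46 or 26.1% (671.00 UMIs), than in inner nuclear spots, at 14 of 28 (2342.5 UMIs), and was 2.21% in choroid and sclera spots (676.50 UMIs).

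NRGN, the calmodulin-binding protein, was near the limit of detection in outer retina. NHP1 had 4 UMIs in outer retina against 42 in inner retina, and NHP2 had 1 against 31. In inner nuclear and ganglion spots the NHP1 levels were 0.602 and 0.446 per 10000, and the NHP2 levels 0.510 and 0.943, so that the order of these classes differed between sections and their ratios, 0.742 (0.354 to 1.47) and 1.85 (0.834 to 4.40), each had an interval that takes in 1. The inner over outer ratios, 7.13 (2.59 to 27.4) and 13.1 (2.18 to 533), were the largest point values of the 7 genes and the least precise. In NHP2 the ratio was 1.01 with equal weight for each spot and 0.980 with thinned spots. The equally weighted value rests in outer retina on 1 UMI, in a spot where it made 13.04 per 10000. The largest tissue piece of NHP2 held 0 inner NRGN UMIs and 1 outer one. NRGN had under 50 UMIs in retina spots of both sections and is not counted among the genes past 2-fold.

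UCHL1 showed a gradient like that of VSNL1. In NHP1 its level was 3.05 per 10000 in outer retina (160 UMIs), 7.54 in the inner nuclear class (363 UMIs) and 18.3 in the ganglion class (534 UMIs). In NHP2 it was 1.81, 6.32 and 20.02, from 32, 124 and 446 UMIs. From summed UMIs the ganglion class was 2.43-fold above the inner nuclear class in NHP1 (2.13 to 2.79) and 3.17-fold in NHP2 (2.59 to 3.90). The median ganglion spot of NHP2 held 0 per 10000 and the median inner nuclear spot 2.54, at median depths of 671.00 and 2342.5 UMIs. A UCHL1 UMI was seen in 41.3% and 53.6% of these spots. In NHP1 the median spots held 13.6 and 6.77. Inner over outer ratios were 3.81 (3.21 to 4.53) and 7.52 (5.27 to 11.1). The NHP2 ratio was 2.27 with equal weight for each spot and 1.86 with thinned spots. Choroid and sclera spots held 3.26 per 10000 in NHP1 (13 UMIs) and 2.63 in NHP2 (34 UMIs), and the outer retina over choroid and sclera ratios were 0.936 (0.532 to 1.80) and 0.689 (0.411 to 1.15). The corresponding SNAP25 ratios were 3.72 (2.06 to 7.49) and 3.43 (2.40 to 5.00). Choroid and sclera spots of NHP1 held 0.20 UCHL1 and 0.169 SNAP25 UMIs per spot, below the 0.290 and 0.456 in off-tissue spots within 3 spacings of the tissue. In NHP2 they held 0.25 and 0.279, above the 0.112 and 0.157 off tissue.

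NSG1, the endosomal protein, was also higher at each class from outer retina inward. Its level per 10000 was 1.03, 3.03 and 5.19 in outer retina, inner nuclear and ganglion spots of NHP1 (54, 146 and 151 UMIs), and 0.622, 2.91 and 4.40 in those of NHP2 (11, 57 and 98 UMIs). The ganglion over inner nuclear ratio was 1.71 (1.35 to 2.16) and 1.51 (1.08 to 2.14). DNER, the Notch ligand, stood at 0.686, 2.39 and 3.78 in NHP1 (36, 115 and 110 UMIs) and at 0.735, 2.45 and 4.71 in NHP2 (13, 48 and 105 UMIs). Its ganglion over inner nuclear ratio was 1.58 (1.21 to 2.07) and 1.93 (1.36 to 2.77). Among the outer retina, inner nuclear and ganglion classes, summed UMIs of both genes were thus lowest in outer retina and highest in the ganglion class. In NHP2 a UMI was seen in fewer ganglion than inner nuclear spots (median depths 671.00 and 2342.5 UMIs). The shares were 28.3% and 46.4% for NSG1, and 19.6% and 42.9% for DNER. NHP1 had 50.6% and 52.5% for NSG1, and 42.2% and 45.8% for DNER. In inner over outer ratio NSG1 reached 3.74 (2.79 to 5.09) and 5.95 (3.23 to 12.2), and DNER 4.25 (2.98 to 6.22) and 4.97 (2.82 to 9.55). With equal weight for each spot NSG1 was at 0.779 in NHP2, and DNER at 2.61. That NSG1 value takes in an outer spot at 40.65 per 10000, against 0.622 from summed UMIs of the class. In the largest tissue piece of NHP2 NSG1 was at 1.59 (0.0828 to 93.8), from 2 inner UMIs and 1 outer UMI. RPE and choroid and sclera spots held at most 8 UMIs of either gene per class and section.

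**Figure D2:**
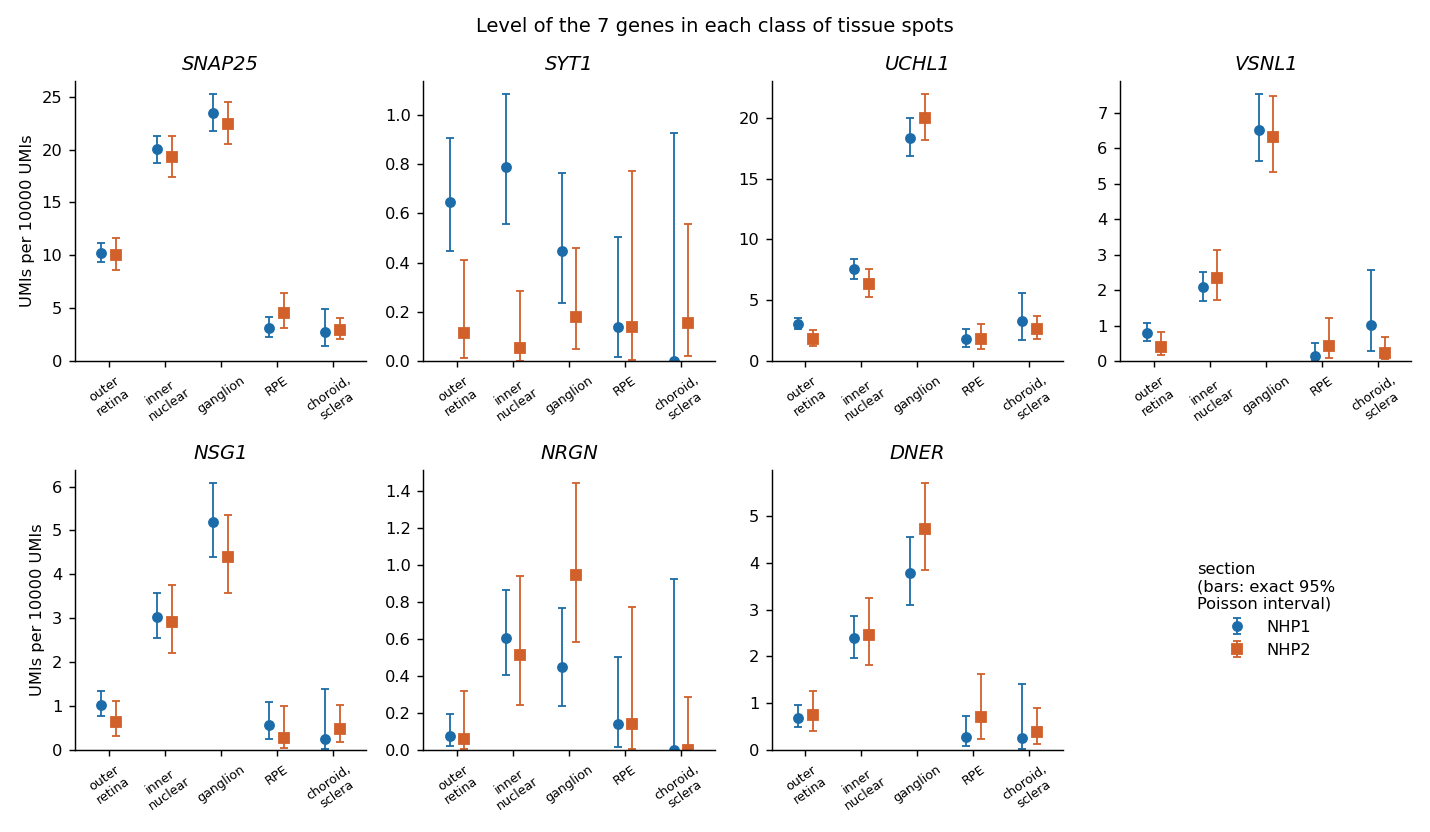
Level of each gene as UMIs per 10000 UMIs (vertical axis, from 0) in 5 classes of tissue spots, with NHP1 as circles and NHP2 as squares; bars are exact 95% Poisson intervals. UCHL1 reaches 18.3 and 20.02 in the ganglion class against 3.05 and 1.81 in outer retina, and SYT1 shows no step.

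Set beside all other genes, the inner over outer ratios of most members lay in the upper tail. This is a description only, since the members were chosen with earlier results of these data known. Of genes with at least 50 UMIs over inner and outer spots, 8.90% of 4834 in NHP1 and 13.2% of 2565 in NHP2 were at least 2-fold higher in inner retina. Of the members, 6 passed this minimum in NHP1 and 5 of these were at least 2-fold higher, with SYT1 the exception. In NHP2, 5 passed and all 5 were at least 2-fold higher, with SYT1 and NRGN too sparse to be counted. The minimum takes inner and outer UMIs together, so a gene high in inner retina can pass through its inner UMIs alone. VSNL1, NSG1, DNER and UCHL1 passed in this way in NHP2, with 7, 11, 13 and 32 outer UMIs. VSNL1 and DNER did so in NHP1, with 41 and 36. These counts are thus partly fixed by the minimum, which all genes had to meet. With equal weight for each spot of NHP2, 19.9% of all genes and 3 of the 5 members counted there, UCHL1, VSNL1 and DNER, were at least 2-fold higher. The median ratio over all 7 members was 3.81 in NHP1 and 5.95 in NHP2, against 0.989 and 0.957 over all genes with at least 50 UMIs, a minimum that the sparse members do not meet. With equal weight for each spot the members' median was 1.23 in NHP2. For VSNL1, 30 genes had a higher ratio in NHP1 and 12 in NHP2, whereas 395 and 318 genes were above SNAP25. Within inner retina fewer genes were separated. At least 2-fold higher in ganglion than in inner nuclear spots were 1.90% of genes in NHP1 and 3.78% in NHP2, and 2 members, UCHL1 and VSNL1, were so in both sections.

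**Figure D3:**
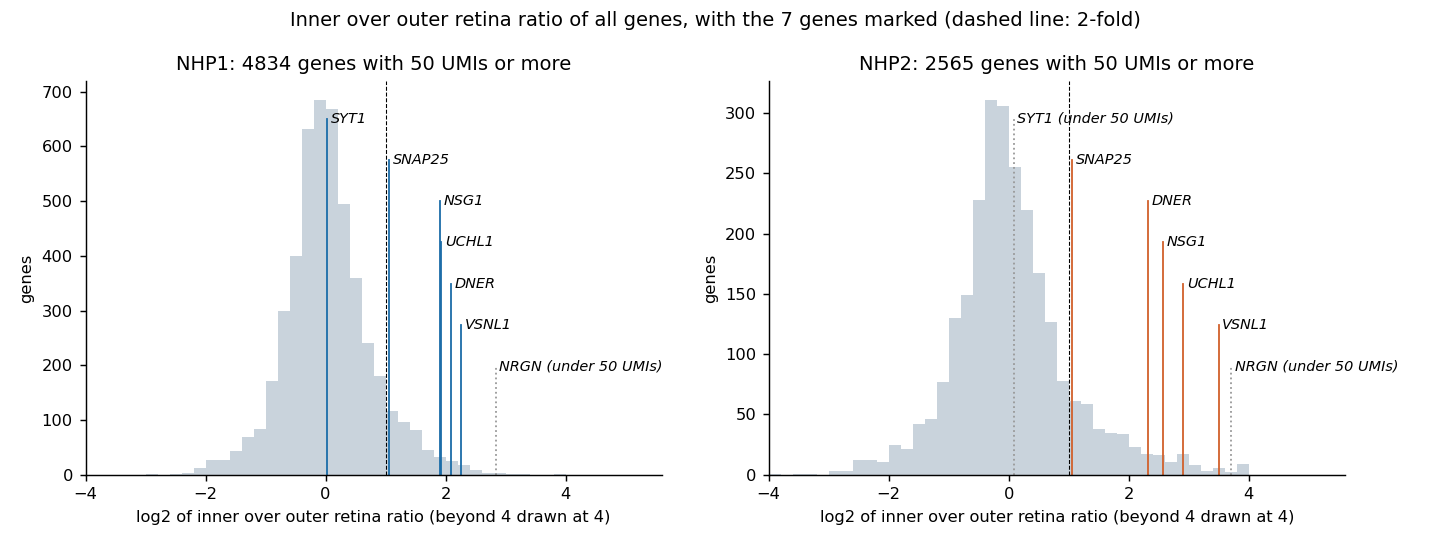
Histogram of the log2 inner over outer retina ratio of all genes with at least 50 UMIs, for 4834 genes in NHP1 and 2565 in NHP2; vertical lines mark the 7 genes, dotted where a gene had under 50 UMIs. SYT1 lies at the centre and SNAP25 at the dashed 2-fold line, with DNER, NSG1, UCHL1 and VSNL1 to its right.

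Within the same inner and outer spots, a finer order was made from the same marker lists, by the inner share of each spot's marker score, from 0 (photoreceptor markers only) to 1 (inner markers only). UCHL1 went from 1.40 per 10000 in the lowest of 5 equal bins of this scale to 2.75, 5.21, 7.15 and 13.7 in the bins above it in NHP1. The NHP2 values were 1.22, 1.57, 5.06, 5.08 and 17.3. VSNL1 stood at 0.210 in the lowest and 4.78 in the highest bin of NHP1, and at 0.459 and 5.77 in NHP2. For SNAP25 the lowest bin was at 9.12 in NHP1 and 9.03 in NHP2, and the highest bin held 23.2 and 23.8. NRGN had no UMI in the lower 2 bins of NHP1, which hold 142594 and 210532 UMIs, and 33 in the highest bin of 521443 UMIs. SYT1 had its highest NHP1 value, 1.12, in the lowest bin, with an interval of 0.641 to 1.82 that overlaps those of all other bins.

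**Figure D4:**
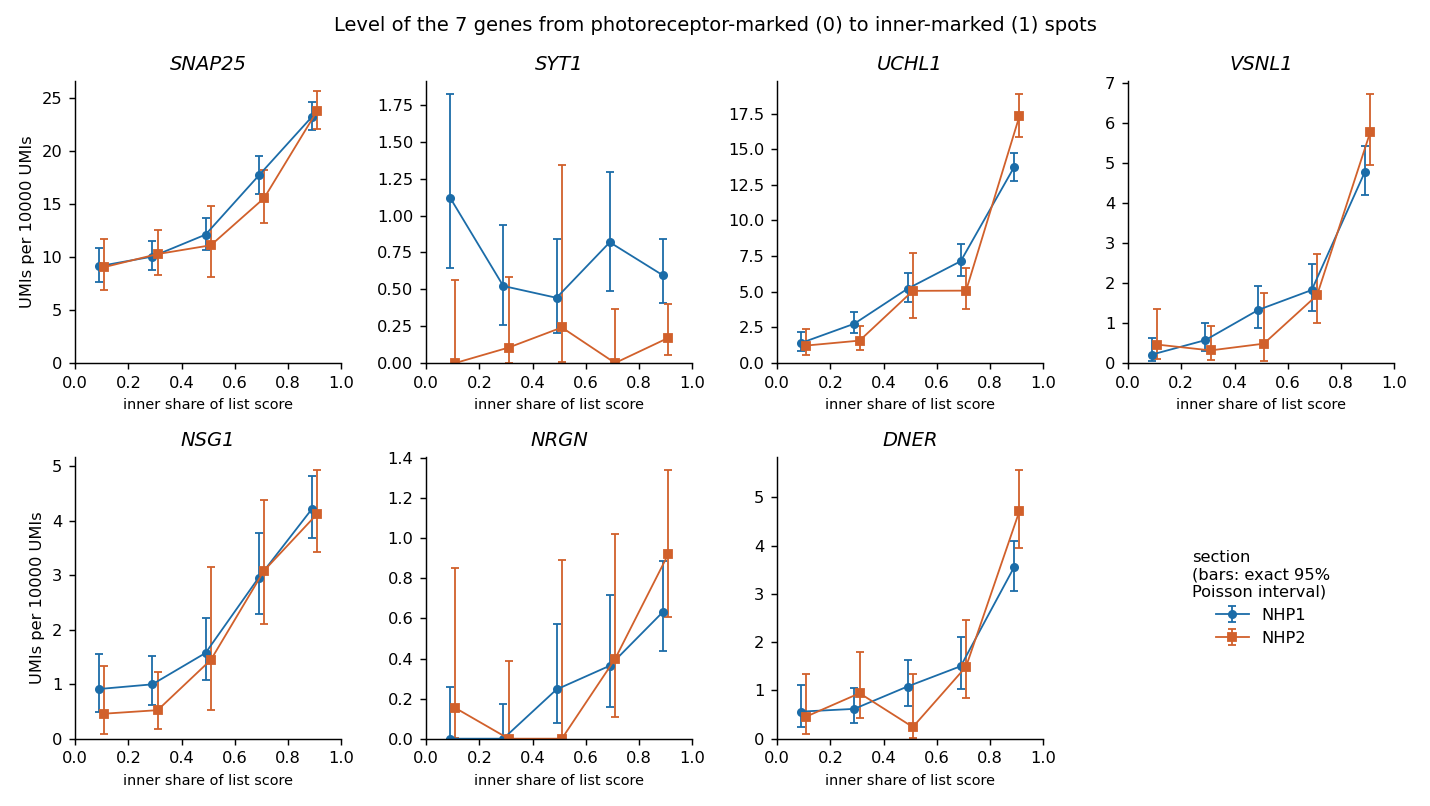
Level of each gene as UMIs per 10000 UMIs in 5 equal bins of the inner share of the marker score (horizontal axis, 0 for photoreceptor markers only, 1 for inner markers only); bars are exact 95% Poisson intervals. All genes but SYT1 are highest in the last bin of both sections.

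Distance from the nearest RPE, choroid or sclera spot was a further measure of position, taken from the same spot classes and so not independent of them. At 1 spacing 46 of 87 spots of NHP1 and 46 of 70 of NHP2 were classed as inner retina. Over 1 to 2 spacings these were 43 of 69 and 18 of 21, and over 2 to 3 spacings 28 of 40 and 10 of 13. The distance thus did not separate outer from inner spots. Retina spots 1 spacing away held 4.57 UCHL1 UMIs per 10000 in NHP1, those over 1 to 2 spacings away 9.49 and those over 2 to 3 spacings away 9.24. In NHP2 these values were 1.95 and 11.8, and spots over 2 to 3 spacings away held 20.3. VSNL1 likewise stood at 1.02, 2.72 and 3.30 in NHP1 and at 0.719, 4.10 and 5.69 in NHP2 over the 3 distances. SNAP25 went from 11.6 to 18.5 and 18.0 in NHP1 and from 9.56 to 20.8 and 24.7 in NHP2. In NHP1 the levels of these genes were no higher beyond 3 spacings, where 86 of 162 spots were inner retina. In NHP2 the 6 spots beyond 3 spacings were all outer retina and held no UMI of UCHL1 or VSNL1 among 7145.

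Several of the genes were often found in the same inner spot. At least 4 of the 7 were detected in 46.7% of inner nuclear, 48.2% of ganglion and 20.6% of outer retina spots of NHP1, at median depths of 2624.0, 1613.0 and 2611.0 UMIs. In NHP2 the shares were 42.9%, 19.6% and 13.9%, at 2342.5, 671.00 and 3333.5 UMIs. Choroid and sclera spots never held 4, at 531.00 and 676.50 UMIs. All 7 were found together in a spot in both sections.

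The difference held in shallow and deep spots of NHP1 but rested on the deep spots of NHP2. Summed over the 7 genes, NHP1 spots under 1000 UMIs held 46.9 UMIs per 10000 in inner retina (40.5 to 54.2) and 16.01 in outer retina (11.2 to 22.2), and spots of 1000 UMIs or more held 44.5 and 16.5. In NHP2 the deep spots gave 49.0 in inner (46.9 to 51.2) and 13.7 in outer retina (12.0 to 15.5). The 40 shallow inner spots of NHP2, however, held 10.0 (6.04 to 15.7), from 19 UMIs, against 18.8 (8.13 to 37.1) in 13 shallow outer spots, from 8 UMIs. When every spot had the same weight, each of the 7 genes had a smaller ratio in NHP2 than from summed UMIs. VSNL1 was then at 5.85, DNER at 2.61, UCHL1 at 2.27, NRGN at 1.01 and SYT1 at 0.111. The same weighting gave a median of 4.05 in NHP1. With only spots holding at least 3 UMIs of their list, the equally weighted median of NHP2 was 2.0. Part of the ganglion class rested on THY1 alone, a surface protein of ganglion cells that fibroblasts can also carry, and THY1 had 207 UMIs in choroid and sclera spots of NHP2. In 25 of the 46 ganglion-class spots of NHP2 THY1 was the one gene of the list with a UMI, and these spots held 9.27 UMIs of the 7 genes per 10000 (4.93 to 15.8, from 13 UMIs). The other 21 held 62.4 (59.0 to 65.9). In NHP1 the THY1-only spots were 10 of 83 and held 31.6, against 58.6 in the others. With THY1 left out of the list, the median ratio of NHP2 was 7.60 from summed UMIs and 4.34 with equal weight for each spot, over 49 inner spots in place of 74. Under that equal weight SNAP25 was at 1.72, NSG1 at 1.38 and NRGN at 0.943, and the sparse SYT1, which counts in that median, at 12.4. The tissue pieces of NHP2 also differed. One held 873 of the 878 inner SNAP25 UMIs in 50 inner spots, and the other, with 24 inner spots, held 5.

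Genes of Müller glia, whose cell bodies lie in the inner nuclear layer, moved with the same contrast. All 8 genes of a Müller glia list that was used for no class were detected in inner and outer spots of both sections, and their summed level was 111.4 per 10000 in inner and 51.57 in outer retina of NHP1, and 95.19 and 30.30 in NHP2. Choroid and sclera spots held 123.6 and 143.9 of this list, led there by CLU. An astrocyte list stood at 3.015 and 1.391 in NHP1 and at 3.819 and 1.244 in NHP2, with 3 of 4 genes detected and PAX2 at 0. Photoreceptor genes were still at 74.58 and 62.18 per 10000 in inner retina, against 290.6 and 331.8 in outer retina, with 23 and 19 of 24 list genes detected. The part of such mixing in the levels of the 7 genes was not tested.

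From summed UMIs, the NHP2 over NHP1 ratio in inner retina was 0.983 for SNAP25 (0.905 to 1.07), 1.17 for UCHL1 (1.05 to 1.30) and 1.19 for VSNL1 (0.984 to 1.43). It was 0.963 for NSG1 (0.788 to 1.17), 1.36 for NRGN (0.828 to 2.22) and 1.25 for DNER (1.01 to 1.55). NRGN stood at 2.11 in the ganglion class (1.01 to 4.59). The median inner spot held 19.1 SNAP25 UMIs per 10000 in NHP1 and 7.17 in NHP2, and 8.83 and 0 of UCHL1. Median depths of these spots were 1975.0 and 856.50 UMIs. In outer retina UCHL1 was lower in NHP2, at a ratio of 0.594 (0.393 to 0.872), and SNAP25 was not, at 0.982 (0.824 to 1.17). SYT1 was lower in NHP2 in both, at 0.181 in inner (0.0563 to 0.450) and 0.175 in outer retina (0.0203 to 0.681). Animal, library, depth and section differ together and cannot be told apart.

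Of 25 SNARE and vesicle release genes in the reference, 12 had at least 50 UMIs in NHP1, of which 3 were at least 2-fold higher in inner retina and 1 at least 2-fold lower, around a median ratio of 1.59. Of all genes 8.90% were at least 2-fold higher and 5.59% at least 2-fold lower in NHP1, and 13.2% and 10.1% in NHP2. The complexins, which clamp and prime the SNARE complex, led the list, with CPLX2 at 3.55 (2.34 to 5.57), CPLX1 at 3.03 (2.32 to 4.01) and CPLX3 at 2.90 (2.26 to 3.75). At the other end were the ribbon synapse syntaxin STX3 at 0.625 (0.409 to 0.952) and RIMS2, a scaffold of the active zone, at 0.183 (0.112 to 0.290). In NHP2, 5 of 9 genes of this list were at least 2-fold higher and none was that much lower, with CPLX1 at 8.63 (4.08 to 21.8).

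Of vesicle membrane genes in NHP1, 5 of 10 were at least 2-fold higher in inner retina and 0 at least 2-fold lower. They were led by the inhibitory transmitter transporter SLC32A1 at 4.23 (2.34 to 8.29), which is itself an inner nuclear marker here, the vesicle protein SV2A at 3.57 (2.52 to 5.20) and the synaptotagmin SYT4 at 3.10 (2.26 to 4.33). Lowest were synaptophysin, SYP, at 0.784 (0.664 to 0.926), SV2B at 0.625 (0.509 to 0.767) and the vesicular glutamate transporter SLC17A7 at 0.595 (0.504 to 0.702). In NHP2, 4 of 8 were at least 2-fold higher and 2 at least 2-fold lower, SV2B at 0.307 (0.214 to 0.439) and SLC17A7 at 0.273 (0.197 to 0.376). Without the class marker SLC32A1 the median ratio of this list was 1.0 in both sections.

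Of calcium sensors and buffers, 5 of 11 were at least 2-fold higher in inner retina of NHP1 and 2 at least 2-fold lower. The EF-hand proteins CALB2 at 3.47 (2.68 to 4.57), HPCA at 3.34 (1.82 to 6.62) and PVALB at 2.34 (2.06 to 2.66) had the highest ratios. CABP2 at 0.606 (0.367 to 0.996) and the activators of photoreceptor guanylate cyclase, GUCA1B at 0.295 (0.262 to 0.331) and GUCA1A at 0.252 (0.233 to 0.272), had the lowest, with GUCA1A being a photoreceptor marker of the classes. In NHP2, 4 of 8 were at least 2-fold higher and 2 at least 2-fold lower, with CALB2 at 5.04 (3.02 to 9.0) and GUCA1B at 0.169 (0.135 to 0.212).

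Among relatives and partners of NSG1, UCHL1 and DNER, 2 of 7 genes were at least 2-fold higher in inner retina of NHP1, around a median of 1.13. NSG2, the paralog of NSG1, had a ratio of 2.59 in NHP1 (1.67 to 4.15) and of 3.06 in NHP2 (1.45 to 7.42). UCHL3, the relative of UCHL1, was at 1.0 (0.574 to 1.79) and ubiquitin itself, UBB, at 0.977 (0.90 to 1.06). Of Notch genes, the target HES1 was at 2.93 (1.58 to 5.83), the receptor NOTCH2 at 1.33 (0.815 to 2.23) and the ligand JAG2 at 0.886 (0.593 to 1.33). Only NSG2 and UBB of this list reached 50 UMIs in NHP2, where UBB was at 1.20 (1.05 to 1.38).

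**Figure D5:**
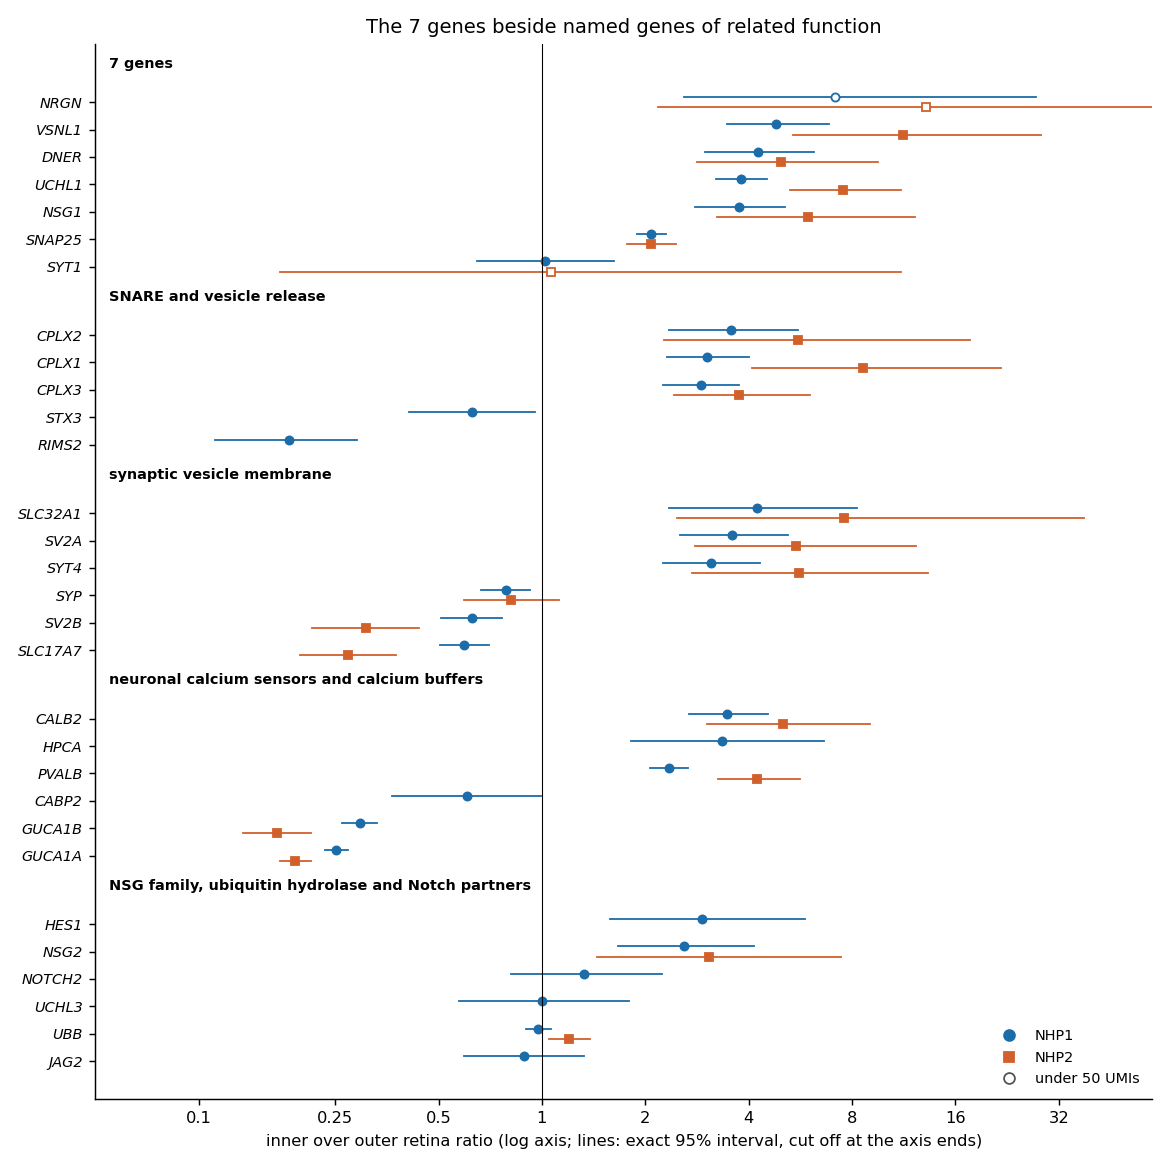
Inner over outer retina ratio (log axis) of the 7 genes and of named genes of 4 lists, with NHP1 as circles and NHP2 as squares; lines are exact 95% intervals and open symbols mark under 50 UMIs. Related genes with under 50 UMIs in NHP2 have no square. CPLX1 to CPLX3 lie right of 1 with most of the 7 genes, and RIMS2, GUCA1A and GUCA1B lie left of it.

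Over the 358 inner and outer spots of NHP1, the genes most like each member were found by Pearson correlation of log2 levels, given as a description, since the spots share a library and sparse counts lower all values. UCHL1 was most like YWHAH (0.453), CRABP1 (0.448) and VSNL1 (0.443), and VSNL1 like UCHL1 (0.443), PREPL (0.438) and YWHAH (0.436). DNER was most like YWHAH (0.423), NDRG4 (0.384) and VSNL1 (0.375), and NSG1 like UCHL1 (0.387), PVALB (0.375) and NDRG4 (0.374). SNAP25 stood nearest to MGARP (0.433), CRABP1 (0.394) and TF (0.394). The sparse genes gave weaker values, with NRGN nearest to CALB2 (0.318), EDIL3 (0.273) and VSNL1 (0.251), and SYT1 to ND4L (0.293), TMED2 (0.285) and TMEM50A (0.264). In NHP2 EDIL3 with NRGN was at 0.0681 and TMEM50A with SYT1 near 0. Among the members themselves the closest pair in NHP1 was thus UCHL1 and VSNL1, and SYT1 had no value above 0.129 with another member. Over the 110 spots of NHP2 the closest pair was VSNL1 and DNER (0.540), with UCHL1 and VSNL1 at 0.383, and SYT1 reached 0.339 with DNER.

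Moran's I, a score of how far neighbouring spots resemble each other, was deposited for each gene over all tissue spots. In NHP1 it was 0.292 for SNAP25, 0.15 for SYT1, 0.127 for VSNL1, 0.126 for UCHL1, 0.124 for NSG1, 0.0977 for DNER and 0.0223 for NRGN, against a median near 0 over 13804 genes. SYT1 ranked 224 of these although its inner over outer ratio from summed UMIs was 1.02. In NHP2 NRGN was higher, at 0.0824, and the other 6 were lower, with DNER at 0.0886, VSNL1 at 0.0876, SNAP25 at 0.0545, UCHL1 at 0.0427, NSG1 at 0.0233 and SYT1 at 0.00227.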

How the data were processed

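Sections of 10 µm, from 4 mm punches, were captured on Visium slides and counted by the authors with Space Ranger 2.1.0 (per the file headers) against Mmul_10 with the vector transgenes added. The labels name the tissue both as fresh frozen and as fixed. The deposited matrices hold raw UMI counts, from which all levels here were computed. Moran's I was used as the score deposited by the authors. PCR copies of a molecule are counted once.

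Tissue spots with at least 200 UMIs were classed by the marker list with the highest share of the spot's UMIs, after division by the 95th percentile of that share over both sections. Of the lists, 4 symbols (CNGB1, GNGT2, CABP5, SLC6A13) found no match. Of the related genes, some, VAMP2, NCS1, RCVRN and CABP5 among them, found no match by symbol. Both matrices share 4341 barcodes of the fixed slide layout, 67 of them on tissue in both. Spots were not checked for doublets, since each is a region. Levels are UMIs per 10000 UMIs, summed over spots, with exact 95% Poisson intervals. Shares of spots have exact binomial intervals, and ratios exact conditional binomial ones. All cover counting error only, and spots are not replicates. Genes with at least 50 UMIs over inner and outer spots entered counts past 2-fold. Tissue pieces are spots joined within 2.1 spacings. Likeness was Pearson correlation of log2(level + 1) among genes with at least 200 UMIs. Upstream windows are from the RefSeq annotation of Mmul_10, where all 7 genes matched by symbol.

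All 7 members were described, and of each list of related genes the 3 with the highest and the 3 with the lowest ratio in NHP1 were named. Of these, 1 related gene and 1 upstream window are not reported here. Members and lists were chosen with earlier results of these data known. Alternatives covered Leiden regions (scanpy 1.11.5, leidenalg 0.10.2), spot and gene minimums, mixed spots, scaling, thinning, layer and tissue piece, and 8 more, on list UMIs per spot, THY1, the deepest spots, the weight of spots and off-tissue RNA, were chosen after seeing the data. The calculation was tested on simulated data. Python 3.11.15, numpy 2.4.6, scipy 1.17.1 and pandas 2.3.3 were used.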

Additional observations from a re-analysis of the deposited data

Results flagged for a closer look

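Slide spots outside the tissue, which enter none of the tissue levels above, held UMIs of the genes above the 3 that a count of 0 allows. In NHP1 these were 683 UMIs of SNAP25, 395 of UCHL1, 107 of VSNL1, 93 of NSG1, 70 of DNER, 27 of SYT1 and 11 of NRGN, over 4284 spots with a median depth of 8 UMIs. In NHP2 they were 116 UMIs of SNAP25, 86 of UCHL1, 15 of VSNL1, 11 of NSG1 and 11 of DNER, over 4027 spots with a median depth of 4 UMIs. For SNAP25 this was 13.1 and 15.1 per 10000 off-tissue UMIs, above its levels in outer retina and in choroid and sclera spots. UCHL1 off tissue stood at 7.55 and 11.2 per 10000, and VSNL1 at 2.05 and 1.95, also above outer retina in both sections. The same held for NSG1, at 1.78 and 1.43, and for DNER, at 1.34 and 1.43. NRGN was at 0.210 and 0.390, from 11 and 3 UMIs, against 0.0762 and 0.0565 in outer retina. SYT1 was lower off tissue than in outer retina, at 0.516 and 0 against 0.648 and 0.113. Per spot SNAP25 off tissue was at 0.159 UMIs in NHP1, against 8.11 in inner retina. Summed over the 7 genes, NHP1 spots within 3 spacings of the tissue held 0.951 UMIs each and those farther away 0.0719, and in NHP2 these values were 0.329 and 0.0173.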

How the results depend on the processing

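The median inner over outer ratio of the 7 genes stayed above 1 under every alternative that gave one. In NHP1 it moved from 3.81 to 2.64 with Leiden regions, 4.65 with clear spots only, 3.04 with spots thinned to 500 UMIs, 2.66 with inner nuclear and 5.51 with ganglion spots alone, and 2.87 in the largest tissue piece. The count of genes at least 2-fold higher in NHP1 moved from 5 to 2 when thinned, where only 2 of the genes still had 50 UMIs, and to 3 in the largest piece, where 4 had. It was 4 in both sections with Leiden regions and with inner nuclear spots alone. No Leiden region of NHP2 was classed inner nuclear, so inner retina there was 1 ganglion region of 27 spots. In NHP1 a shallow region of 95 spots and 74887 UMIs counted as photoreceptor, though its named leading genes were CTR9, PCBP1 and DDB1. Leiden regions thus do not compare quite the same layers as the marker classes. Leiden regions also gave a VSNL1 ratio of 2.64 in NHP1 and 5.87 in NHP2, and an NSG1 ratio of 2.44 and 2.98. In NHP2 the median moved from 5.95 to 1.23 as a mean over spots and to 2.0 as a mean over spots with at least 3 list UMIs, and lay between 3.49 and 8.60 otherwise. Single ratios of NHP2 below 1 were SNAP25 at 0.882 when thinned and 0.795 in the largest piece, and NSG1 at 0.779 as a mean over spots. NRGN was at 0.980 when thinned, 0 in the largest piece and 0.943 as a mean over spots without THY1 in the ganglion list. The sparse SYT1, from 1.06, was at 0.451 with inner nuclear spots alone, 0.479 without the deepest spots and 0.111 as a mean over spots. As a mean over spots with at least 3 list UMIs SYT1 was at 0.193. The largest piece held 5 inner and 5 outer retina UMIs of SNAP25, and 0 and 1 of NRGN, too few to show a direction. The cause of the values below 1 was not tested. Thinning and the largest piece gave no median or count in NHP2, since members had no outer retina UMIs or none reached 50. SNAP25 was above 1 in 20 of 20 alternatives in NHP1 and 18 of 20 in NHP2, and at least 2-fold in 14 of 20 in each, and SYT1 reached 2-fold in 0 of 20 and 4 of 18.

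Few UMIs limit the precision for SYT1 in NHP2 and NRGN in both sections. No paired analysis was possible because the sections are from different animals with 1 section each. Leaving out a replicate was not possible for the same reason.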
